A study of Mus musculus with 8 samples.

Results

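Messenger RNA of 10 genes for inhibitory surface proteins of T cells was measured in Th17 and Th1 cells that carried or lacked Tet2. The set held the receptors Pdcd1 (PD-1), Ctla4, Lag3, Havcr2 (TIM-3), Tigit, Cd101 and Cd160, the surface glycoprotein Cd200, and the ectoenzymes Nt5e (CD73) and Entpd1 (CD39). The genes were listed by symbol for their known function, with earlier results of these data already known. Each was read from the probe set that carries that symbol alone, and each had 1 such probe set, so that 10 of the 19938 genes of the array table are described. The Tet2-deficient cells, of the Th17 and the Th1 subset, came from CD2(Cre)Tet2(f/f) mice, and the wild-type cells of both subsets came from Tet2(f/f) mice. Both genotypes therefore carried the floxed Tet2 alleles and only the Tet2-deficient one carried Cre. Expression of Cre from CD2 sequences acts in the lymphocyte lineage, not in Th17 or Th1 cells alone. Each of the 4 groups had 2 arrays, named biological replicates in the titles. Whether they came from separate mice or pools, and the age, sex and culture conditions, are not stated in the sources used here. The p-values measure the spread between such arrays.

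Inhibitory receptors are induced on T cells after antigen recognition and restrain signalling through the antigen receptor and CD28. Several carry tyrosine motifs in the cytoplasmic tail that recruit phosphatases, and CTLA-4 also removes the shared ligands CD80 and CD86 from reach of CD28. The ectoenzymes act in sequence outside the cell: CD39 degrades ATP and ADP to AMP, and CD73 turns AMP into adenosine, which inhibits T cells through its receptors. Tet2, the deleted gene, encodes a dioxygenase that oxidizes methylated cytosines, mostly at CpG dinucleotides. Th17 cells are known for interleukin-17 and Th1 cells for interferon-gamma.

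Promoter sequence is shown for 4 of these genes because the study concerns an enzyme of cytosine demethylation and because both directions of the subset difference described below are among them. Nt5e and Cd101 were higher in Th17 cells, and Tigit and Cd200 were lower. Each sequence is the 250 bases before the RefSeq start, 5′ to 3′ on the strand of the gene, in build GRCm38.p6, with every CpG in capitals. The windows are chr9:88327359-88327608 on the plus strand for Nt5e, chr3:101029554-101029803 on the minus strand for Cd101, chr16:43664185-43664434 on the minus strand for Tigit and chr16:45409054-45409303 on the minus strand for Cd200.
Nt5e: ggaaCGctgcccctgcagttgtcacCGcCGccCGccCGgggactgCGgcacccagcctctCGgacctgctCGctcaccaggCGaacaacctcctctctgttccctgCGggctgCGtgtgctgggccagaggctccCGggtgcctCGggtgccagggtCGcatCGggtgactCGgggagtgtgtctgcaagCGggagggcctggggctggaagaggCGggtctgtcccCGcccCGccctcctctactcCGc
Cd101: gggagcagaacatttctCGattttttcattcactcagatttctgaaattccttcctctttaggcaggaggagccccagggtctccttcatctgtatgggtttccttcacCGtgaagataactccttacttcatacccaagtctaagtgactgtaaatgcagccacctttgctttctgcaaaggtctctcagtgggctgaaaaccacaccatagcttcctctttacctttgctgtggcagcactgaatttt
Tigit: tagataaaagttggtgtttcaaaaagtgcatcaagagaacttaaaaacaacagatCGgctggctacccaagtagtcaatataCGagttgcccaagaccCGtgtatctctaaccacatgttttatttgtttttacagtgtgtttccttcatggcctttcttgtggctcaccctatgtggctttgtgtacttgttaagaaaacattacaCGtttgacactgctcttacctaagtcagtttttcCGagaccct
Cd200: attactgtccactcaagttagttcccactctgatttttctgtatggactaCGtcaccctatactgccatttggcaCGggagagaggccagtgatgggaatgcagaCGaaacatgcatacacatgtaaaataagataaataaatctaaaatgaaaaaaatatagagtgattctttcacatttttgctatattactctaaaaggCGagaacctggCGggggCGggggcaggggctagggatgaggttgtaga

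The Nt5e window held 21 CpG dinucleotides and was 72.0% G and C, while the Cd101 window held 2 and was 45.2% G and C. The windows of Tigit and Cd200 held 5 and 6. Across the 32817 promoter windows of the same length the median was 6, and 83.7% of windows held fewer than that of Nt5e and 18.8% fewer than that of Cd101. The 2 genes that rose most in Th17 cells thus differed in CpG content, and both lay within the middle 90% of windows, from 0 to 31 CpG. RefSeq windows were matched for 9 of the 10 genes, 11 windows in all. Those not printed held 3 CpG for Pdcd1, 7 for Ctla4, 2 for Havcr2, 5 in each of the Cd160 windows, and 18 and 8 in the Entpd1 windows. Methylation was not measured on these arrays.

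A search of both strands for 5 short motifs found few matches. The NFAT core GGAAA, present in 55.6% of all windows, occurred in those of Pdcd1, Ctla4, Tigit, Cd101, 1 of Cd160 and 1 of Entpd1. The AP-1 motif TGANTCA (6.75% of all windows) occurred in that of Havcr2. The STAT motif TTCNNNGAA (7.01%) occurred in 1 Cd160 window, the ROR site AGGTCA (14%) in those of Pdcd1 and Havcr2, and the T-box site AGGTGT (11.8%) in that of Ctla4. The windows of Nt5e and Cd200 held none of the 5. No motif was shared by all genes that rose or by all that fell between the subsets, and a match is a description of letters only.

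The labels fitted the subset genes. Ifng had log2 signals of 5.92 to 6.03 on the Th17 arrays against 10.18 to 11.84 on the Th1 arrays, and Il17a 8.87 to 9.84 against 5.90 to 6.18. Among the Th1 markers, all 7 measured, 1 was called higher and 3 lower in Tet2-deficient Th17 cells, and 0 higher and 3 lower in wild-type Th17 cells. All 6 measured Th17 markers were called higher in Th17 cells of both genotypes. Low signal was marked by the level below which 95% of the 1027 olfactory receptor genes fell on the same array, as these are not known as T cell genes. The 7 measured T cell markers lay above this limit in every group, Cd4 at 10.18 to 10.42, while both CD8 markers, Cd8a and Cd8b1, lay under it. Within each genotype none of these was called between the subsets, and in the mean of genotypes Cd2 and Cd8b1 were called lower in Th17 cells (log2 differences of -0.35 and -0.31). The probe set of Tet2 read 8.34 and 8.39 in Tet2-deficient Th17, 8.51 and 8.49 in wild-type Th17, 8.12 and 7.98 in Tet2-deficient Th1, and 8.14 and 8.02 in wild-type Th1 cells. It may lie outside the deleted exons and so does not check the genotype. The Th17 arrays differed in Xist, a transcript of female cells. On an index of the linear Xist signal, set to 0 at the mean of the Th1 arrays and to 100 on the brightest array, the Tet2-deficient Th17 arrays read 14.7 and 100 and the wild-type Th17 arrays 0.187 and 42.9. The Th1 arrays lay between -0.130 and 0.105, and the index is not a measured share of female RNA. None of the 10 genes lies on the X chromosome. Its part in the subset differences was tested only by the fits with this index as a covariate, quoted below where a call was lost.

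The question of the first comparison is how the inhibitory set differs between the subsets. In Th17 cells Nt5e and Ctla4 were higher than in Th1 cells, by 2.24 to 5.12-fold, and Cd101 was higher, from a Th1 signal under the olfactory limit. Lag3, Tigit, Cd200 and Pdcd1 were lower, by 1.59 to 2.53-fold. Havcr2 and Entpd1 were also called lower, but at signals under the olfactory limit on all 8 arrays, so no fold is given for them. Cd160 was not called. The same 9 genes were called in Tet2-deficient and in wild-type cells, with the same direction in both. A gene was called at a limma adjusted p under 0.05, with the Benjamini-Hochberg adjustment over all 19938 genes. In Tet2-deficient cells 9 of 10 were called, beside 10.1% of all genes. In wild-type cells it was 9 of 10 beside 8.4%, and in the mean of both genotypes 9 of 10 beside 22.2%. By direction, the 3 higher genes stand beside 6.32% of all genes called higher in Tet2-deficient cells and 4.97% in wild-type cells. The 6 lower genes stand beside 3.79% and 3.44% called lower. The shares over all genes were lower in several fits with 1 array left out. Such a fit leaves 1 array in a group and has less power, so it does not show that the shares rest on a particular array. The median Th17 minus Th1 difference of the 10 was -0.61 in Tet2-deficient and -0.72 in wild-type cells on the log2 scale, against -0.03 for all genes in each.

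**Figure D1:**
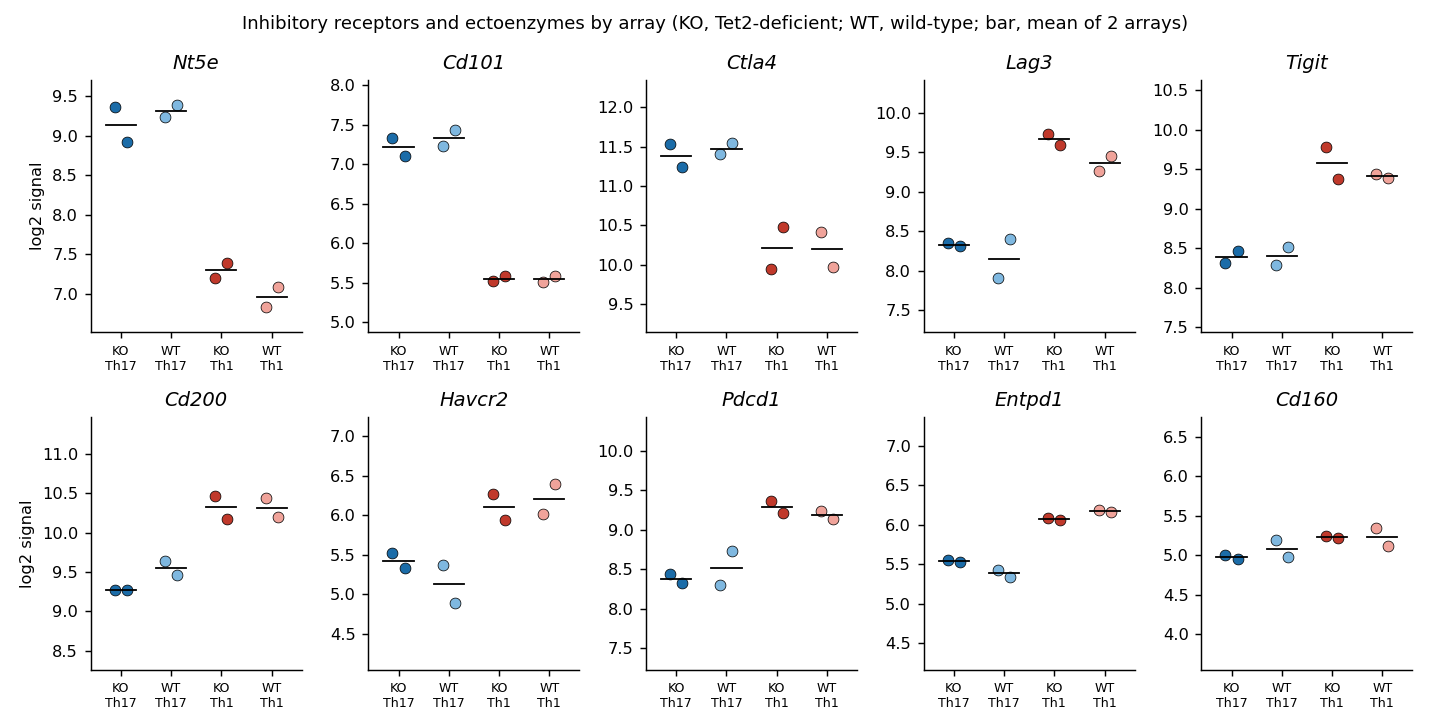
Log2 signal of each of the 10 genes on the 8 arrays, one panel per gene, with points for single arrays and bars for the mean of 2. In the panels of Nt5e, Cd101 and Ctla4 the 4 Th17 arrays lie above the 4 Th1 arrays, in those of Lag3, Tigit, Cd200, Havcr2, Pdcd1 and Entpd1 they lie below, and for Cd160 they overlap.

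Among the ectoenzymes, Nt5e (gene ID 23959, probe set 10587639, chromosome 9) showed the widest range of group means of the 10 genes, 2.36 on the log2 scale. Its log2 signals were 9.36 and 8.92 on the Tet2-deficient Th17 arrays, against 7.20 and 7.39 in Tet2-deficient Th1 cells. In wild-type cells they were 9.24 and 9.39 in Th17, against 6.82 and 7.09 in Th1. Every Th17 array lay above every Th1 array by more than the spread of any group, and 1 wild-type Th1 array was under the olfactory limit. CD73 makes the adenosine, so this is the last step of the extracellular pathway. Between Th17 and Th1 the log2 difference was 1.85 ± 0.16 (SE, limma adjusted p = 1.75e-05) in Tet2-deficient cells and 2.36 ± 0.16 (adjusted p = 2.3e-06) in wild-type cells, or 3.60-fold and 5.12-fold.

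Entpd1 (gene ID 12495, probe set 10463070, chromosome 19), which supplies the AMP that CD73 uses, moved the other way. Its log2 signals were 5.56 and 5.52 on the Tet2-deficient Th17 arrays, against 6.09 and 6.06 in Tet2-deficient Th1 cells. Wild-type Th17 arrays read 5.43 and 5.34, against 6.18 and 6.16 on wild-type Th1 arrays. The subsets did not overlap, but all 8 values lay under the olfactory limit of their array. On the log2 scale Th17 minus Th1 came to -0.54 ± 0.10 (adjusted p = 0.00519) in Tet2-deficient and -0.79 ± 0.10 (adjusted p = 0.000440) in wild-type cells by limma. These are differences between signals under the limit. The call in Tet2-deficient cells was lost with the Xist index as a covariate (adjusted p = 0.0846).

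The low-signal genes themselves were lower in Th17 cells. Over the 1027 olfactory receptor genes the median Th17 minus Th1 log2 difference was -0.28 in Tet2-deficient and -0.29 in wild-type cells, and the middle 90% ran from -0.64 to 0.0070 and from -0.63 to -0.014. The Entpd1 difference in Tet2-deficient cells lay inside that range and the one in wild-type cells outside it. Both Havcr2 differences, given below, lay outside, and both Cd160 differences inside. When each array was centred on its olfactory receptor genes, a setting chosen after the data were seen, the median of all genes moved to 0.31 and 0.30. Entpd1 was then -0.20 (adjusted p = 0.275) in Tet2-deficient cells, and Havcr2 -0.34 (adjusted p = 0.0678). In wild-type cells Pdcd1 was -0.35 (adjusted p = 0.136) and Cd200 -0.43 (adjusted p = 0.0584). The other calls were kept, and 9 of 10 stayed called in the mean of both genotypes.

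**Figure D2:**
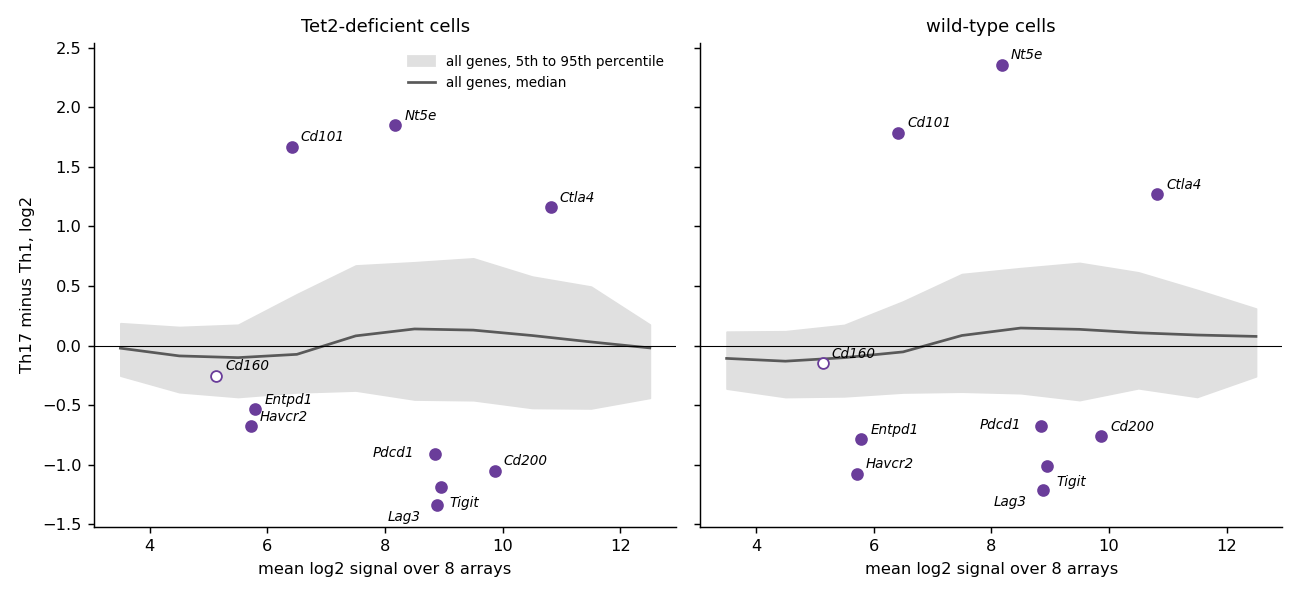
Th17 minus Th1 log2 difference against the mean log2 level, for the 10 genes over the median and middle 90% of all genes in bins of level. Nt5e, Cd101 and Ctla4 lie above and 6 genes below the range of genes of like signal in both genotypes, while Cd160, drawn open as not called, lies within it.

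Cd101 and Ctla4 joined Nt5e among the genes higher in Th17 cells. Cd101 (gene ID 630146, probe set 10500656, chromosome 3) encodes an immunoglobulin-family glycoprotein that restrains T cell activation. Its log2 signals were 7.34 and 7.11 on the Tet2-deficient Th17 arrays, against 5.52 and 5.59 in Tet2-deficient Th1 cells, and in wild-type cells 7.23 and 7.43 in Th17, against 5.51 and 5.59 in Th1. Cd101 was under the olfactory limit on all 4 Th1 arrays and on none of the Th17 arrays. The difference of the measured signals may therefore be too small, and no fold is given. The Th17 minus Th1 log2 difference was 1.67 ± 0.12 (limma adjusted p = 4.57e-06) in Tet2-deficient and 1.78 ± 0.12 (limma adjusted p = 2.3e-06) in wild-type cells.

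Ctla4 (gene ID 12477, probe set 10346790, chromosome 1) was bright in both subsets. It read 11.53 and 11.24 on the Tet2-deficient Th17 arrays, against 9.95 and 10.48 in Tet2-deficient Th1 cells. In wild-type cells the log2 signals were 11.40 and 11.54 in Th17, against 10.42 and 9.98 in Th1. The SD of the Th1 arrays was 0.38 in Tet2-deficient and 0.31 in wild-type cells, and the subsets still did not overlap. The log2 difference was 1.16 ± 0.19 (limma adjusted p = 0.00225) in Tet2-deficient and 1.27 ± 0.19 (limma adjusted p = 0.00145) in wild-type cells, 2.24-fold and 2.41-fold.

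Ctla4, Nt5e and Entpd1 are also known as genes of regulatory T cells. Of 7 regulatory T cell markers, all measured, 1 was called higher and 0 lower in Tet2-deficient Th17 against Th1 cells, and 2 higher and 0 lower in wild-type cells. These were Gpr83 (log2 differences of 0.77 and 1.51) and, in wild-type cells, Lrrc32 (0.82). The share of all genes called was 10.1% in Tet2-deficient and 8.4% in wild-type cells. Foxp3, the defining factor, stayed between 6.40 and 6.73 on all 8 arrays. It was under the olfactory limit on every Th1 array, on Tet2-deficient Th17 replicate 2 and on wild-type Th17 replicate 1. The summed linear signal of the 7 was 6174 to 6845 in Tet2-deficient Th17, 7125 to 7352 in wild-type Th17, 6806 to 7019 in Tet2-deficient Th1 and 6274 to 6870.4 in wild-type Th1 cells. Il2ra, at 12.31 to 12.53, was the brightest of the 7 on every array and so the largest part of each sum. The part of regulatory T cells in the results was not tested. In such bulk samples a smaller number of cells that express a gene and less RNA per cell cannot be told apart.

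Of the genes lower in Th17 cells, Lag3 had the largest difference in Tet2-deficient and in wild-type cells. Lag3 (gene ID 16768, probe set 10547906, chromosome 6) encodes a CD4-related receptor for MHC class II. Its log2 signals were 8.34 and 8.31 on the Tet2-deficient Th17 arrays, against 9.73 and 9.59 in Tet2-deficient Th1 cells. Wild-type Th17 arrays read 7.90 and 8.39, against 9.26 and 9.45 on wild-type Th1 arrays. The highest Th17 value was below the lowest Th1 value. Between Th17 and Th1 the log2 difference was -1.34 ± 0.16 (limma adjusted p = 0.000194) in Tet2-deficient and -1.21 ± 0.16 (limma adjusted p = 0.000467) in wild-type cells, 2.53-fold and 2.32-fold lower.

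Tigit (gene ID 100043314, probe set 10439527, chromosome 16) encodes a receptor that competes with CD226 for the nectin-like ligand CD155. It read 8.31 and 8.47 on the Tet2-deficient Th17 arrays, against 9.78 and 9.38 in Tet2-deficient Th1 cells, and 8.29 and 8.52 in wild-type Th17 cells, against 9.44 and 9.39 in wild-type Th1 cells. The 2 subsets were apart on every array. On the log2 scale Th17 minus Th1 came to -1.19 ± 0.15 (limma adjusted p = 0.000322) in Tet2-deficient and -1.01 ± 0.15 (limma adjusted p = 0.00115) in wild-type cells.

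Cd200 (gene ID 17470, probe set 10439651, chromosome 16), the ligand of an inhibitory receptor on myeloid cells, lies on the same chromosome as Tigit. Its log2 signals were 9.27 and 9.27 on the Tet2-deficient Th17 arrays, against 10.46 and 10.18 in Tet2-deficient Th1 cells. In wild-type cells they were 9.64 and 9.47 in Th17, against 10.43 and 10.20 in Th1. No Th17 array reached the Th1 range. The Th17 minus Th1 log2 difference was -1.05 ± 0.14 (limma adjusted p = 0.000481) in Tet2-deficient and -0.76 ± 0.14 (limma adjusted p = 0.00534) in wild-type cells. The wild-type call was lost without wild-type Th17 replicate 2 (adjusted p = 0.0658) and when all probe sets were tested in place of genes (adjusted p = 0.0524).

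Pdcd1 (gene ID 18566, probe set 10356866, chromosome 1) encodes PD-1, which recruits the phosphatase SHP-2 upon ligation. It read 8.44 and 8.32 on the Tet2-deficient Th17 arrays, against 9.36 and 9.22 in Tet2-deficient Th1 cells, and 8.29 and 8.73 in wild-type Th17 cells, against 9.24 and 9.13 in wild-type Th1 cells. All Th17 arrays were lower. The log2 difference was -0.91 ± 0.15 (limma adjusted p = 0.00203) in Tet2-deficient and -0.67 ± 0.15 (limma adjusted p = 0.0151) in wild-type cells. The wild-type call was lost without wild-type Th17 replicate 1 (-0.45, adjusted p = 0.114). It was likewise lost with wild-type Th1 replicate 1 left out (adjusted p = 0.0784) or with all probe sets tested (adjusted p = 0.0941).

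Havcr2 and Cd160 gave low signal on all 8 arrays, in the range of olfactory receptor genes. Havcr2 (gene ID 171285, probe set 10375443, chromosome 11), known as a marker of Th1 cells, read 5.52 and 5.33 on the Tet2-deficient Th17 arrays, against 6.27 and 5.94 in Tet2-deficient Th1 cells, and 5.37 and 4.89 in wild-type Th17 cells, against 6.02 and 6.40 in wild-type Th1 cells. The subsets did not overlap, though every value was under the limit. Between Th17 and Th1 the log2 difference was -0.68 ± 0.17 (limma adjusted p = 0.0286) in Tet2-deficient and -1.08 ± 0.17 (limma adjusted p = 0.00244) in wild-type cells.

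The Havcr2 call in Tet2-deficient cells was among those lost when single arrays were left out. It was lost without Tet2-deficient Th17 replicate 1 (adjusted p = 0.0849) or replicate 2 (adjusted p = 0.163), and with Tet2-deficient Th1 replicate 1 left out (-0.51, adjusted p = 0.220). It was also lost with the Xist index as a covariate (-0.45, adjusted p = 0.324), after a further quantile normalization (adjusted p = 0.0583) and with all probe sets (adjusted p = 0.150). In wild-type cells it was lost with all probe sets (adjusted p = 0.0627).

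Cd160 (gene ID 54215, probe set 10500406, chromosome 3) encodes a lipid-anchored receptor for HVEM. It read 5.0 and 4.95 on the Tet2-deficient Th17 arrays, against 5.24 and 5.22 in Tet2-deficient Th1 cells. Wild-type Th17 arrays read 5.20 and 4.97, against 5.35 and 5.12 on wild-type Th1 arrays. The wild-type subsets overlapped. On the log2 scale Th17 minus Th1 came to -0.25 (95% interval -0.51 to 0.0034, limma adjusted p = 0.208) in Tet2-deficient and -0.15 (95% interval -0.40 to 0.11, limma adjusted p = 0.475) in wild-type cells.

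**Figure D3:**
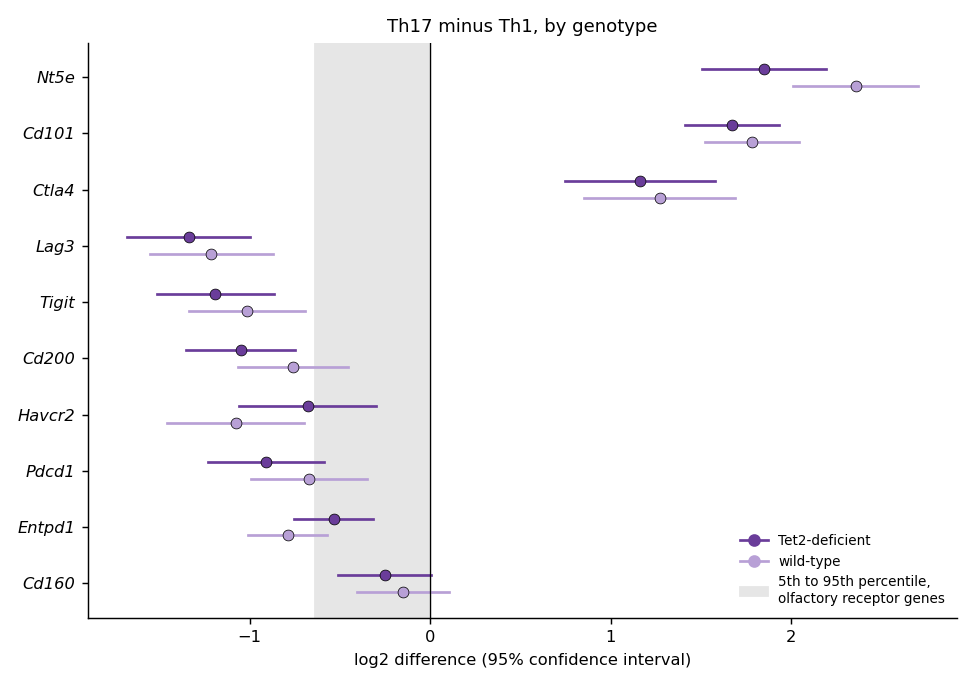
Th17 minus Th1 log2 difference of each gene in Tet2-deficient and wild-type cells, with 95% intervals from limma. Nt5e, Cd101 and Ctla4 lie above 0 and 6 genes below it in both genotypes, and the Cd160 intervals cross 0.

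Arrays of the 2 subsets did not overlap for 10 of 10 genes in Tet2-deficient cells, beside 57.5% of all genes, and for 9 of 10 in wild-type cells, beside 52.2%. With all 4 arrays of each subset it was 9 of 10, beside 24.6%. The order of the 4 group means followed from this. For the 9 called genes both groups of one subset stood above both groups of the other. Within a subset, the groups of the 2 genotypes overlapped, except those of Lag3 and Nt5e in Th1, of Cd200 in Th17, and of Entpd1 in both.

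The 10 profiles were compared by the root mean square difference over the 8 arrays after each gene's own mean was subtracted. Nt5e and Cd101 were 0.236 apart, and Ctla4 was 0.310 from Cd101 and 0.500 from Nt5e. All other members were 0.974 to 1.70 from Nt5e or Cd101. In the whole table the profiles most like that of Nt5e were those of Cpd (0.129), Txk (0.204) and Arntl (0.219). Those most like Cd101 were Ssh2 (0.112), Arhgap15 (0.124) and Dnah8 (0.144). As these were picked for likeness on the same arrays, their own subset differences are not given as results.

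Ligands of the receptors differed in both directions. Of 14 ligand or counter-receptor genes, all measured, 3 were called higher and 2 lower in Tet2-deficient Th17 against Th1 cells, and 2 higher and 3 lower in wild-type cells. Over all genes 10.1% were called in Tet2-deficient and 8.4% in wild-type cells. The list's median log2 difference was -0.03 and -0.05, near that of all genes. Both ligands of PD-1 fell in both genotypes. Pdcd1lg2 (PD-L2) differed by -1.19 in Tet2-deficient and -1.51 in wild-type cells, and Cd274 (PD-L1) by -0.998 and -0.77. Cd86, a ligand shared by CTLA-4 and CD28, rose by 1.75 ± 0.29 (adjusted p = 0.00228) in Tet2-deficient and 1.37 ± 0.29 (adjusted p = 0.0121) in wild-type cells. Cd86 was under the olfactory limit on every Th1 array, on Tet2-deficient Th17 replicate 2 and on wild-type Th17 replicate 1. Pdcd1lg2 was under it on every Th17 array. Cd200r1, the receptor of CD200, rose by 0.71 and 0.65, but at signals under the olfactory limit on all 8 arrays. Cd80, the other shared ligand of CTLA-4 and CD28, fell in wild-type cells, at -0.60 (adjusted p = 0.0163), and its difference of -0.39 in Tet2-deficient cells was not called (adjusted p = 0.0844). Thus Pdcd1 and its ligand genes were all lower in Th17 cells. Cd200 was lower too, while the difference of its receptor gene is between signals under the limit.

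Cd86 and Cd200r1 are also known from myeloid cells, whose markers varied between groups. The summed linear signal of 14 myeloid markers was 1868 to 2063 in Tet2-deficient Th17, 1248 to 1422 in wild-type Th17, 1252 to 1289 in Tet2-deficient Th1 and 1180 to 1217 in wild-type Th1 cells. In each group 12 of the 14 were under the olfactory limit on both arrays. One marker, Ly6g, read 10.39 and 10.13 in Tet2-deficient Th17, 9.03 and 9.53 in wild-type Th17, 8.54 and 8.72 in Tet2-deficient Th1 and 8.35 and 8.58 in wild-type Th1 cells. Ly6g was the brightest of the 14 on every array and so the largest part of each sum. Among the 14, 1 was called higher in Th17 cells of each genotype, Ly6g, and 1 lower, Mpeg1. The Mpeg1 log2 differences were -1.07 in Tet2-deficient and -0.72 in wild-type cells, at signals under the olfactory limit on all 8 arrays. Over all genes 10.1% were called in Tet2-deficient and 8.4% in wild-type cells. In each genotype only 3 of the 14 had a Th17 minus Th1 difference above 0, with medians of -0.14 in Tet2-deficient and -0.17 in wild-type cells. In the mean of genotypes 1 was called higher and 5 lower. Of 7 measured B cell markers 0 were called in either genotype, and 6, 5, 7 and 7 were under the limit in the same order of groups. Their part in the results was not tested.

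Natural killer cells express several of these receptors too, Cd160 among them. Of 8 natural killer markers 7 were measured, with a summed linear signal of 440.0 to 539 in Tet2-deficient Th17, 383 to 394 in wild-type Th17, 2418 to 2921 in Tet2-deficient Th1 and 2196 to 3225 in wild-type Th1 cells. Under the olfactory limit on both arrays were 5, 4, 5 and 5 of them in the same order. In Tet2-deficient Th17 against Th1 cells 1 was called higher and 2 lower, and in wild-type cells 0 higher and 2 lower. Over all genes 10.1% were called in Tet2-deficient and 8.4% in wild-type cells. Nkg7 fell, at -4.95 and -4.54, and Klrd1 rose by 1.73 in Tet2-deficient cells. Under the olfactory limit were Nkg7 on both Tet2-deficient Th17 arrays and Klrd1 on both Tet2-deficient Th1 arrays. Nkg7 was the brightest of the 7 on every Th1 array and so the largest part of the Th1 sums. Klrb1c, Ncr1, Klra8 and Gzma stayed at 3.90 to 4.94 on all 8 arrays, under the limit. The list includes Eomes, which Th1 cells are also known to express and which was called lower in Th17 cells, at -1.40 in Tet2-deficient and -1.33 in wild-type cells. Its part in the differences was not tested.

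Among other inhibitory receptors every called gene was higher in Th17 cells. Of 14 listed genes 13 were measured, and 2 were called higher and 0 lower in Tet2-deficient Th17 against Th1 cells, and 3 higher and 0 lower in wild-type cells, with medians of -0.03 and 0.0054. These counts stand beside 10.1% and 8.4% of all genes called, and the difference from the members was not tested. Pecam1, an adhesion molecule with inhibitory tyrosine motifs, rose by 1.11 and 1.32. It was under the olfactory limit on both wild-type Th1 arrays. Cd96, a further receptor for CD155, rose by 0.83 and 0.77, whereas Tigit fell. Vsir (VISTA) rose by 0.65 in wild-type cells, and its log2 difference of 0.31 in Tet2-deficient cells was not called.

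Costimulatory receptors were mixed. Of 10 genes, all measured, 2 were called higher and 3 lower in Tet2-deficient cells and 1 higher and 2 lower in wild-type cells, with median log2 differences of -0.37 and -0.14. Over all genes 10.1% were called in Tet2-deficient and 8.4% in wild-type cells. Icos, beside Ctla4 on chromosome 1, rose by 0.63 and 0.92. The TNF receptor family genes Tnfrsf9 (4-1BB) and Tnfrsf18 (GITR) fell, at -1.13 and -0.97 in Tet2-deficient cells and -0.63 and -0.75 in wild-type cells. Tnfrsf4 (OX40) fell in Tet2-deficient cells, at -0.68, and was not called in wild-type cells, at -0.29. Cd28, the direct counterpart of Ctla4 and its chromosomal neighbour, rose by 0.48 in Tet2-deficient cells (adjusted p = 0.0382), and its log2 difference of 0.33 in wild-type cells was not called (adjusted p = 0.152).

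Genes that carry the signal of inhibitory receptors inside the cell changed in part. Of 12 signalling genes, all measured, 2 were called higher and 1 lower in each genotype, with medians of 0.02 and 0.04. The share of all genes called was 10.1% in Tet2-deficient and 8.4% in wild-type cells. The phosphatase gene Ptpn6 (SHP-1) fell, at -0.56 in Tet2-deficient and -0.46 in wild-type cells, and Inpp5d (SHIP-1) rose by 0.66 and 0.67. Rasa1, a Ras GTPase-activating protein, rose by 0.81 and 1.27 in Tet2-deficient and wild-type cells.

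Around the ectoenzymes, 18 of 25 listed genes of extracellular ATP and adenosine were measured. In Tet2-deficient cells 3 were called higher and 1 lower, and in wild-type cells 4 higher and 1 lower, with medians of -0.00025 and -0.02. The share of all genes called was 10.1% in Tet2-deficient and 8.4% in wild-type cells. Dpp4 (CD26), the anchor of adenosine deaminase at the surface, rose by 1.45 and 1.40 in Tet2-deficient and wild-type cells. The ATP-gated channel genes P2rx7 and P2rx4 rose by 0.70 and 0.44 in Tet2-deficient cells, and by 1.06 and 0.51 in wild-type cells. The nucleotide-sugar receptor gene P2ry14 fell by 0.65 in wild-type cells, and the nucleoside transporter gene Slc29a2 fell by 0.46 in Tet2-deficient cells. P2ry14 was under the olfactory limit on both wild-type Th17 arrays and on wild-type Th1 replicate 1. Nt5e, Dpp4, P2rx7 and P2rx4 were thus called higher in Th17 cells of both genotypes, and Entpd1 lower.

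Transcription factors known to act on inhibitory receptor genes held some of the largest differences. Of 20 listed 19 were measured, and 4 were called higher and 6 lower in Tet2-deficient cells, and 5 higher and 5 lower in wild-type cells, with medians of -0.02 and 0.09. Over all genes 10.1% were called in Tet2-deficient and 8.4% in wild-type cells. Maf rose by 3.52 in Tet2-deficient and 3.67 in wild-type Th17 cells, Bcl6 by 1.87 and 1.18, and Ahr by 1.85 and 1.66. Maf and Bcl6 were under the olfactory limit on every Th1 array, and Ahr on Tet2-deficient Th1 replicate 1 and wild-type Th1 replicate 2. Tbx21 (T-bet), the Th1 factor, fell, at -3.34 and -2.58. Prdm1 (Blimp-1), known to act on several inhibitory receptor genes, fell, at -0.67 and -1.63. It was under the olfactory limit on every Th17 array and on both Tet2-deficient Th1 arrays. The Prdm1 difference in Tet2-deficient cells is therefore between signals under the limit.

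**Figure D4:**
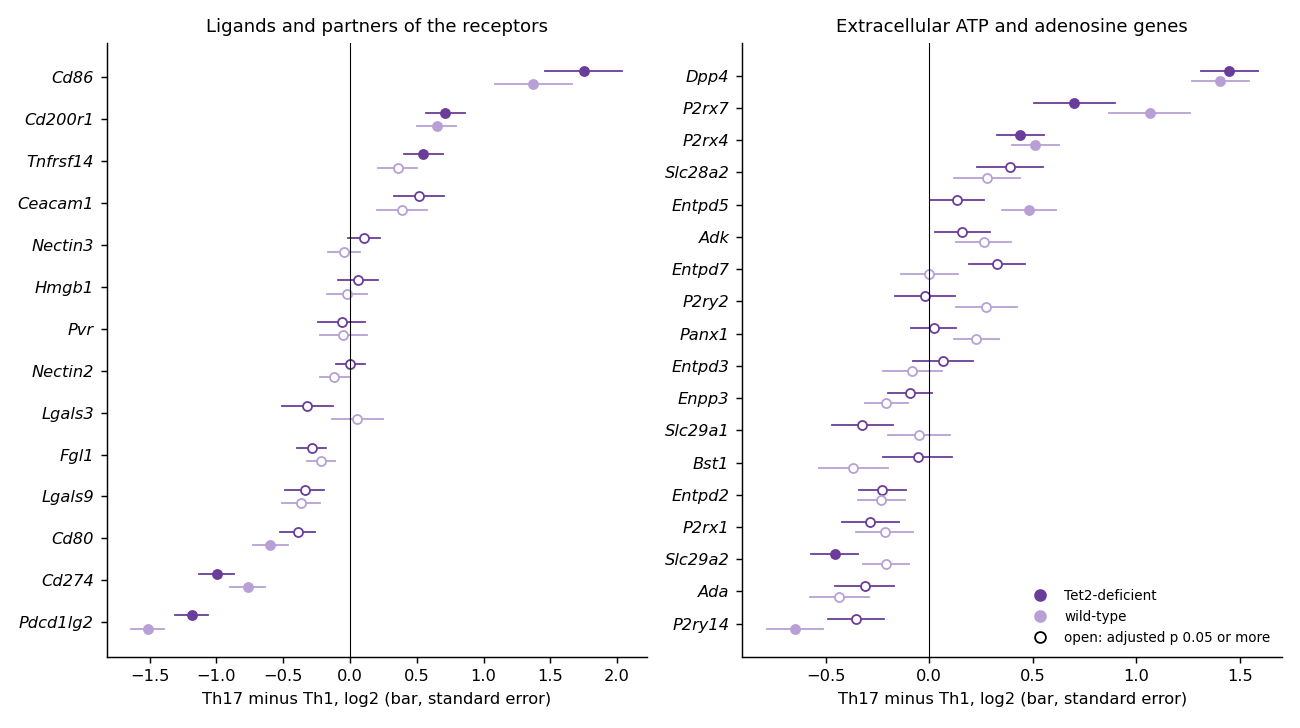
Th17 minus Th1 log2 differences, with standard errors as bars, of the 14 ligand genes and the 18 ATP and adenosine genes in Tet2-deficient and wild-type cells, filled where called. Cd86 and Dpp4 lie farthest to the right of 0, and Pdcd1lg2 and P2ry14 farthest to the left in wild-type cells. Cd86, Pdcd1lg2 and P2ry14 were each under the olfactory limit on some arrays.

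The next comparison asks whether loss of Tet2 changed these genes within a subset. In Th1 cells 0 of 10 were called, beside 0.00502% of all genes, which is 1 gene, Ifng. In Th17 cells it was 0 of 10 beside 0%. By limma 0 of the 10 had an unadjusted p under 0.05 in either subset, where 1206 of all genes did in Th1 and 824 in Th17 cells. The median Tet2-deficient minus wild-type log2 difference of the 10 was 0.01 in Th1 and -0.10 in Th17 cells, against 0.01 for all genes in each. Arrays of the genotypes did not overlap for 3 of 10 genes in Th1 cells, beside 33.3% of all genes, and for 2 of 10 in Th17 cells, beside 32.9%. These shares are near the background or below it.

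In Th1 cells the widest differences were those of Nt5e and Lag3. Nt5e read 7.20 and 7.39 in Tet2-deficient Th1 cells, against 6.82 and 7.09 in wild-type Th1 cells, without overlap. The log2 difference was 0.34 ± 0.16 (95% interval -0.0092 to 0.68, limma adjusted p = 0.829). Lag3 read 9.73 and 9.59 in Tet2-deficient cells, against 9.26 and 9.45 in wild-type cells, also without overlap, a log2 difference of 0.31 ± 0.16 (95% interval -0.03 to 0.65, adjusted p = 0.830). The third gene whose arrays did not overlap was Entpd1, at -0.10 ± 0.10. The other 7 genes lay between -0.10 for Havcr2 and 0.16 for Tigit.

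In Th17 cells Cd200 and Havcr2 differed most. Cd200 read 9.27 and 9.27 on the Tet2-deficient Th17 arrays, against 9.64 and 9.47 in wild-type Th17 cells, without overlap. The log2 difference was -0.29 ± 0.14 (95% interval -0.59 to 0.015, limma adjusted p = 0.99996). Havcr2, at low signal, read 5.52 and 5.33 in Tet2-deficient cells, against 5.37 and 4.89 in wild-type cells, and the genotypes overlapped at a log2 difference of 0.30 ± 0.17. Entpd1 was 0.16 ± 0.10, without overlap, and Nt5e -0.17 ± 0.16, with overlap. The remaining genes lay between -0.13 for Pdcd1 and 0.18 for Lag3.

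The Tet2 effect in Th17 minus that in Th1 was called for 0 of 10 genes by limma, beside 0% of all genes, with 1 of the 10 at an unadjusted p under 0.05. That gene was Nt5e, at -0.51 ± 0.22 (95% interval -0.997 to -0.021, limma adjusted p = 0.999). In the mean of both subsets 0 of 10 were called, beside 0%, with 1 other gene at an unadjusted p under 0.05. That gene was Lag3, at 0.24 ± 0.11 (95% interval 0.0024 to 0.48, limma adjusted p = 0.909). With 2 arrays a group, 95% intervals of single genes reached 0.22 to 0.42 either side of the estimate in Th1 and Th17 cells. These intervals are not adjusted for the number of genes tested, while a call is. Genotype effects of that size, and larger ones, could therefore be present without a call. Gpr83, outside the 10 genes, read 7.96 and 7.92 in Tet2-deficient Th17, against 8.88 and 8.94 in wild-type Th17 cells, and was not called.

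**Figure D5:**
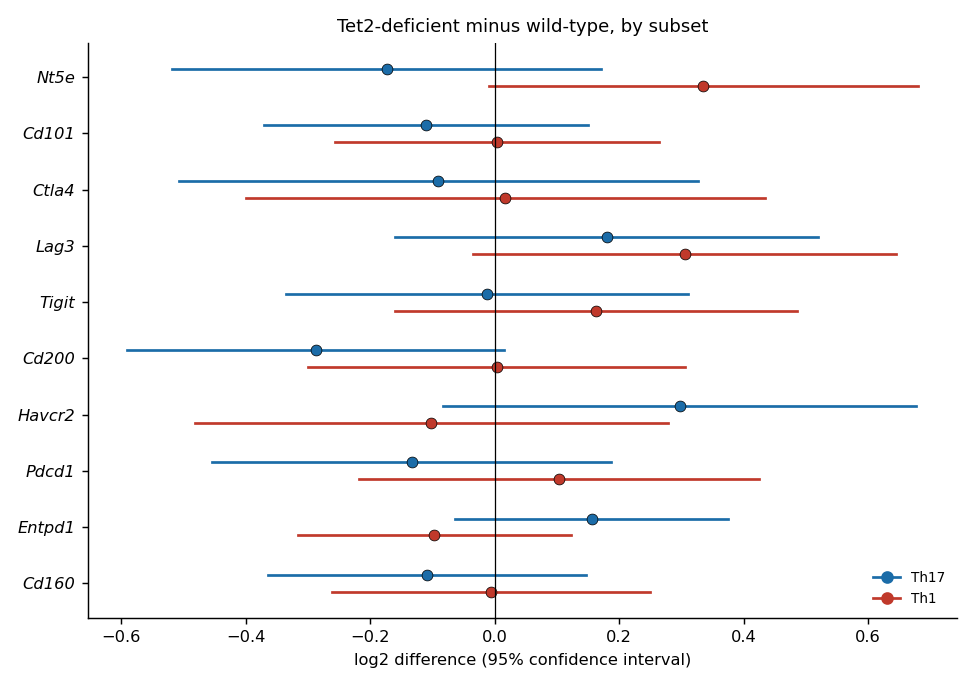
Tet2-deficient minus wild-type log2 difference of each gene in Th17 and Th1 cells, with 95% intervals from limma. Every interval includes 0, and the estimates run from -0.29 for Cd200 in Th17 cells to 0.34 for Nt5e in Th1 cells.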

How the data were processed

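Total RNA of 8 samples was measured on an Affymetrix whole-transcript array. The values deposited by the authors are log2 probe-set signals. RMA, GCOS and Affymetrix Expression Console are named in the submitters' processing notes, with no version, order or option. RMA summarizes probes and usually normalizes arrays to one another, so the values were used as they stood. Array medians of all genes were 6.53 to 6.61.

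Of 35556 probe sets, 21789 had a single symbol in the platform annotation, 1621 had several and 12146 none given. Of the single-symbol probe sets, 21698 matched GRCm38 by gene ID and 0 symbols changed. The brightest probe set was kept for the 999 genes with several, which left 19938 genes. Apart from that choice, levels of different probe sets were set against each other only as a description, as probe sets differ in brightness. Such uses include the olfactory limit, the marker sums and the genes named as brightest of a list.

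All genes were fitted with limma 3.58.1 in R 4.3.3 (4 group means, eBayes with trend, 4 residual and 8.32 prior degrees of freedom). Tests were two-sided with Benjamini-Hochberg adjustment. Array signals carry no read depth, so precision rests on the small number of arrays.

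The 10 genes and the 14 lists beside them were chosen with earlier results of these data known. All 10 genes are named, as are up to 4 called genes with the largest difference for each list and comparison. The 3 genes most like each of the 2 members with the widest range are named too. Genes named for their role, their level or a count include Foxp3, Ly6g, Cd8a, Cd8b1, Cd4, Eomes, Cd80, Cd28 and P2rx4. Il2ra, Klrb1c, Ncr1, Klra8 and Gzma belong to these too. Tet2, Ifng, Il17a and Xist were named as label checks, and Gpr83 also in the genotype comparison, where it was not called. Genes that the rule allows were not all named. Some listed genes are not analysed here. Deviations of same-numbered replicates correlated at -0.186 to 0.061 across pairs of groups, so the numbers were not taken to pair arrays.

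Alternatives were a replicate block, a fit on both groups only, a level filter, all probe sets, the mean of probe sets, quantile normalization, median centring, eBayes without trend or robust, array weights, the Xist index as a covariate and leaving out each array. Centring on olfactory receptor genes was added after the data were seen. Promoter windows came from the RefSeq table, build GRCm38.p6.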

Additional observations from a re-analysis of the deposited data

Results flagged for a closer look

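Entpd1 differed in direction between the subsets. Its log2 signals were 5.56 and 5.52 in Tet2-deficient Th17 cells, both above the 5.43 and 5.34 of wild-type Th17 cells. In Th1 cells they were 6.09 and 6.06 in Tet2-deficient cells, both below the 6.18 and 6.16 of wild-type cells. The Tet2 effect in Th17 minus that in Th1 was 0.253 on the log2 scale, 0.25 ± 0.14 with its standard error, and did not pass the test (limma adjusted p = 0.999). Such opposite arrays without overlap were found for 4.96% of all genes, 989 of 19938, and all Entpd1 values lay in the range of low signal.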

How the results depend on the processing

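The number of the 10 genes called between Th17 and Th1 cells was 9 in each genotype and 6 to 9 under the alternatives. The count of 6 came from the level filter, which left Cd101, Cd160, Entpd1 and Havcr2 untested, and, in wild-type cells, from all probe sets. Leaving out 1 array left 8 or 9. With the replicate block 9 of 10 were called in each genotype, and the block changed no call of the 10. In the genotype comparisons 0 of 10 were called under every alternative run, while the count over all genes ran from 0 to 14 in Th1 and 0 to 27 in Th17 cells. The fit on both groups only gives no value for means and differences of contrasts. No called difference changed sign. Cd160 between subsets turned to 0.0854 in Tet2-deficient cells, 0.176 in wild-type cells and 0.130 in their mean with olfactory centring. In Th1 cells the small Tet2-deficient minus wild-type differences of Ctla4, Cd101 and Cd200 turned to -0.0114, -0.00965 and -0.0173 with quantile normalization, -0.00377, -0.0170 and -0.0182 with median centring, and -0.0511, -0.0644 and -0.0655 with olfactory centring. Without single arrays the Th1 differences ran from -0.249 to 0.284 for Ctla4, -0.0353 to 0.0436 for Cd101, -0.137 to 0.143 for Cd200, -0.0387 to 0.364 for Tigit, -0.293 to 0.0883 for Havcr2 and -0.117 to 0.107 for Cd160. The Th17 differences ran from -0.237 to 0.0559 for Ctla4, -0.226 to 0.00431 for Cd101, -0.126 to 0.102 for Tigit, -0.398 to 0.0508 for Nt5e, -0.0667 to 0.427 for Lag3, -0.352 to 0.0855 for Pdcd1 and -0.220 to 0.00330 for Cd160. Their difference ran from -0.375 to 0.158 for Ctla4, -0.230 to 0.000204 for Cd101, -0.376 to 0.0269 for Tigit, -0.372 to 0.121 for Lag3 and -0.215 to 0.00850 for Cd160. The cause of these turns was not tested. Over all genes, 2015 were called between subsets in Tet2-deficient cells, against 726 with the Xist index, 1001 with all probe sets and 7114 with olfactory centring. Without Tet2-deficient Th17 replicate 1 or 2 it was 801 or 1103, and without Tet2-deficient Th1 replicate 1 or 2 it was 933 or 1204. In wild-type cells it was 1675, against 1101 in the fit on both groups only, 599 with all probe sets and 6564 with olfactory centring, 1029 without wild-type Th1 replicate 1 and 663 without wild-type Th17 replicate 2. In the mean it was 4417, against 2054 with the Xist index, 2651 without Tet2-deficient Th17 replicate 1 and 12532 with olfactory centring. Low signal limits what can be said of Havcr2, Entpd1 and Cd160 in every group, and of Cd101 in Th1 cells.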
